A study of Rattus norvegicus with 12 samples.

Results

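Mitochondrially encoded transcripts, the RNAs copied from the small genome inside mitochondria, were followed as 1 summed quantity through the kidney nuclei of 12 ZSF1 rats. They were taken as the genes that the authors summed in the mitochondrial percentage of each nucleus. That percentage times the total of unique molecular identifiers (UMIs, each standing for 1 captured RNA molecule) gave a whole number of mitochondrial UMIs in all 217132 nuclei, to within 1e-06. In all, 4353962 of 354690830 UMIs (1.23%) were mitochondrial, and 164617 of 217132 nuclei (75.8%) held at least 1 of them. The single genes behind the sum, and the expression of any other gene, were not analysed here, so the authors' names of 25 clusters are used as labels and were not checked against marker genes.

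The 12 male rats fell into 4 groups of 3, and the rat is the replicate in every test. ZSF1 obese rats (ZSF1-LeprfaLeprcp/Crl), which carry mutated leptin receptor alleles and develop obesity, diabetes and kidney disease, entered treatment at an age of 13 to 14 weeks and were treated for 12 weeks. The obese group received vehicle (rats RK7_4, RK9_4 and RK16_4), the sGCact group received the soluble guanylate cyclase activator BAY 1101042 (runcaciguat) at 3 mg/kg 2 times a day (RK43_4, RK45_4 and RK46_4), and the sGCstim group received the stimulator BAY 1165747 at 3 mg/kg 1 time a day (RK57_4, RK58_4 and RK61_4). Lean ZSF1 rats (RK1_4, RK3_4 and RK5_4) were the control and were not dosed, so the lean-obese contrast also sets undosed against dosed animals. The 2 compounds were given at different daily totals. Every group was fed the same high-energy chow.

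The mitochondrial genome encodes subunits of the respiratory chain and of ATP synthase together with the ribosomal and transfer RNAs needed to translate them, and its transcripts are made and kept inside the organelle. Proximal tubule, thick ascending limb and distal convoluted tubule cells are packed with mitochondria that fuel sodium reabsorption, whereas podocytes and thin limb cells hold fewer. A preparation of nuclei leaves most of the cytoplasm behind, so a mitochondrial UMI in a nucleus can come from carried-over cytoplasm or from RNA free in the suspension. The level in a nucleus is therefore not a measure of the mitochondrial content of the cell.

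Most nuclei held little mitochondrial RNA, and a small set of nuclei held most of it. No mitochondrial UMI was recorded in 24.2% of nuclei, and a further 32.5% held more than 0 and at most 1%. The 3.43% of nuclei with over 10% carried 19.5% of all mitochondrial UMIs, and the 12.6% with over 5 and up to 10% carried 39.2%. The highest value was 14.995%, just under the authors' limit of 15%, above which nuclei had been removed. Proximal tubule clusters, where the filtrate is first reabsorbed, held 79.9% of the mitochondrial UMIs and 55.7% of all UMIs. The cluster of proximal straight tubule (PST) held 40.3% of the mitochondrial UMIs, but 15.8% without rat RK9_4. Without that rat the nuclei with over 10% were 1.79% of all nuclei and the proximal share of mitochondrial UMIs was 67.9%.

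Rats contributed 10488 to 43484 nuclei and 11898496 to 49272672 UMIs each. The 43484 nuclei were those of RK9_4, and 40028 of them were of the authors' proximal tubule type. Every rat listed more nuclei than the methods give as loaded for capture. Whether each entry was an intact nucleus was not tested. Over the 22 clusters with at least 10 nuclei in every rat, the widest Wilson 95% interval of a mitochondrial percentage ran from 2.12% to 2.77% around 2.42% (the endothelial cluster GEC(Reln+) in RK7_4), and such intervals cover counting error only. The median width of these intervals was 0.0346 percentage points, far below the spread between rats. Pairs of rats shared between 29 and 290 cell barcodes, and no nucleus was listed more than 1 time. Rat RK9_4 alone held 1866498 of the mitochondrial UMIs. Summed over all nuclei, the mitochondrial percentages were 0.595%, 0.721% and 0.187% in the lean rats RK1_4, RK3_4 and RK5_4. They were 2.45%, 3.89% and 0.860% in the obese rats RK7_4, RK9_4 and RK16_4. Under sGCact they were 1.24%, 0.883% and 0.157% in RK43_4, RK45_4 and RK46_4, and under sGCstim 0.137%, 0.145% and 2.01% in RK57_4, RK58_4 and RK61_4. Each of the 3 obese rats was above each lean rat, and both treated groups spanned the lean range. RK61_4 stood apart from the other sGCstim rats, and results that rest on it are given with and without it.

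Clusters differed widely in their mitochondrial percentage, here the mitochondrial UMIs of a cluster in a rat over all UMIs of that cluster and rat. The authors' clustering used the measured genes of the same nuclei, so the order of clusters is a description. A proximal tubule cluster labelled PTnov1 stood highest in 12 of 12 rats. Its percentages were 4.21%, 6.51% and 3.87% in the lean rats and 12.2%, 12.0% and 6.84% in the obese rats, in the order RK1_4, RK3_4, RK5_4 and RK7_4, RK9_4, RK16_4, which holds for lean and obese values throughout. Under sGCact they were 7.64%, 6.23% and 3.04% (RK43_4, RK45_4, RK46_4), and under sGCstim 4.67%, 4.84% and 7.27% (RK57_4, RK58_4, RK61_4), orders kept below. The 3 obese rats were above the 3 lean rats, while each treated group overlapped both. PTnov1 held 2.11% of all UMIs and 13.6% of the mitochondrial ones, and it held 2737 of the 7451 nuclei with over 10% (980 of 3110 without RK9_4).

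The next cluster by the mean of the 12 rats was PST(Spp1+), straight tubule nuclei named for Spp1, which encodes the secreted phosphoprotein osteopontin. It lay below PTnov1 in 12 of 12 rats, by 3.64 ± 1.63 percentage points (SD, n = 12). Its values were 2.58%, 1.98% and 0.417% in lean rats, 7.41%, 4.75% and 2.63% in obese rats, 5.31%, 3.27% and 0.917% under sGCact and 0.0382%, 0.707% and 5.66% under sGCstim. The lowest obese rat lay just above the highest lean rat, and the sGCstim rats held both the lowest value and the second highest. The thin descending limb (DTL), a water-permeable segment with few mitochondria, came next by its mean, with PST(Spp1+) above it in 7 of 12 rats. The DTL values were 0.882%, 0.919% and 0.143% in lean rats, 1.37%, 5.14% and 2.78% in obese rats, 4.64%, 2.59% and 1.84% under sGCact and 0.0667%, 1.42% and 0.568% under sGCstim. All obese and all sGCact rats were above all lean rats in DTL, and the sGCstim rats spread from below the lean range to above it. DTL is a small cluster, and its fewest nuclei in a rat were 16, in RK7_4, the lowest obese rat. Below PST(Spp1+) too, neighbours in the order of means changed places between rats, since the upper of each pair was higher in 3 to 11 of 12 rats.

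Large proximal clusters that differ in position along the tubule did not share 1 pattern. In the proximal convoluted tubule (PCT), the first and most mitochondria-rich part, the values were 1.11%, 1.10% and 0.288% in lean rats and 0.339%, 0.892% and 1.19% in obese rats. They were 2.09%, 0.649% and 0.284% under sGCact and 0.625%, 0.124% and 1.56% under sGCstim, so all 4 groups overlapped in PCT. In PST, further down the tubule, the lean values were 0.146%, 0.0934% and 0.0109% and the obese values 4.93%, 4.60% and 0.169%. PST reached 0.291%, 1.55% and 0.0283% under sGCact and 0.00712%, 0.0321% and 0.538% under sGCstim. RK7_4 and RK9_4 thus stood far above all other rats in PST, RK45_4 came next, and RK16_4 was only just above the highest lean rat.

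PST(S2), the second segment of the same tubule, was among the 3 lowest clusters in 9 rats. Its values were 0.0944%, 0.10% and 0.00737% in lean rats, 0.0611%, 1.14% and 0.105% in obese rats, 0.116%, 0.0205% and 0.0178% under sGCact and 0.0267%, 0.0199% and 1.14% under sGCstim. RK9_4 and RK61_4 were the high rats there and RK7_4 was not, unlike in PST. Injured proximal tubule nuclei (PTinj, named here after its values were seen) ran the other way from PST and PTnov1 between lean and obese rats. PTinj held 0.393%, 0.849% and 0.286% in lean rats, 0.142%, 0.264% and 0.245% in obese rats, 0.471%, 0.452% and 0.224% under sGCact and 0.0473%, 0.0426% and 0.0650% under sGCstim. Each obese rat was below each lean rat, and each sGCstim rat was below every other rat.

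Beyond the proximal tubule, mitochondria-rich segments did not stand at the top. The thick ascending limb (TAL), which reabsorbs salt without water, held 0.397%, 0.677% and 0.0765% in lean rats, 0.838%, 0.997% and 1.56% in obese rats, 1.03%, 0.235% and 0.118% under sGCact and 0.0393%, 0.120% and 0.419% under sGCstim. Obese rats were above lean and above sGCstim rats without overlap. The distal convoluted tubule (DCT), where salt uptake is fine-tuned by the thiazide-sensitive cotransporter, held 0.0880%, 0.114% and 0.0292% in lean rats and 1.29%, 2.64% and 0.390% in obese rats. DCT values were 0.133%, 0.0241% and 0.0365% under sGCact and 0.0123%, 0.0474% and 1.97% under sGCstim. RK7_4, RK9_4 and RK61_4 were the high rats in DCT, and RK16_4 lay between them and the rest.

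DCT/CNT, which joins the distal convoluted and connecting tubule, ranked 18 to 22 of the 22 clusters in every rat, although DCT itself ranged from 8 to 22. DCT/CNT values were 0.0947%, 0.0964% and 0.0142% in lean rats, 0.0594%, 0.184% and 0.265% in obese rats, 0.0699%, 0.0276% and 0.0232% under sGCact and 0.00888%, 0.0454% and 0.141% under sGCstim, and the obese and lean rats overlapped. Type A intercalated cells (IC-A), which secrete acid with a proton pump, held 0.322%, 0.328% and 0.0400% in lean rats, 0.144%, 0.25% and 0.956% in obese rats, 0.370%, 0.108% and 0.265% under sGCact and 0.0550%, 0.102% and 0.262% under sGCstim. All groups overlapped in IC-A, with RK16_4 highest. In their type B counterpart (IC-B, chosen after its values were seen), RK61_4 reached 2.85% and every other rat was at or below 0.603%.

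Podocytes (Podo), the cells that wrap the glomerular capillaries and hold the filtration barrier, spread over a 678-fold range between the lowest and the highest rat, next to PST with 692-fold. Their mitochondrial percentage was 0.315%, 0.251% and 0.0124% in lean rats, 6.46%, 4.69% and 0.0707% in obese rats, 0.458%, 0.0155% and 0.0186% under sGCact and 0.0208%, 0.00952% and 4.11% under sGCstim. RK7_4, RK9_4 and RK61_4 were high, and the third obese rat, RK16_4, lay within the lean range. In these 3 rats 92.9%, 84.3% and 93.2% of podocyte nuclei exceeded 1%, so the high level was spread over most of the cluster. Podocytes ranked from 3 to 22 among the 22 clusters, depending on the rat. Their 678-fold range rests on a very low value, 34 mitochondrial UMIs in 135 nuclei of RK58_4, and on 56 nuclei of RK7_4 at the top.

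**Figure D1:**
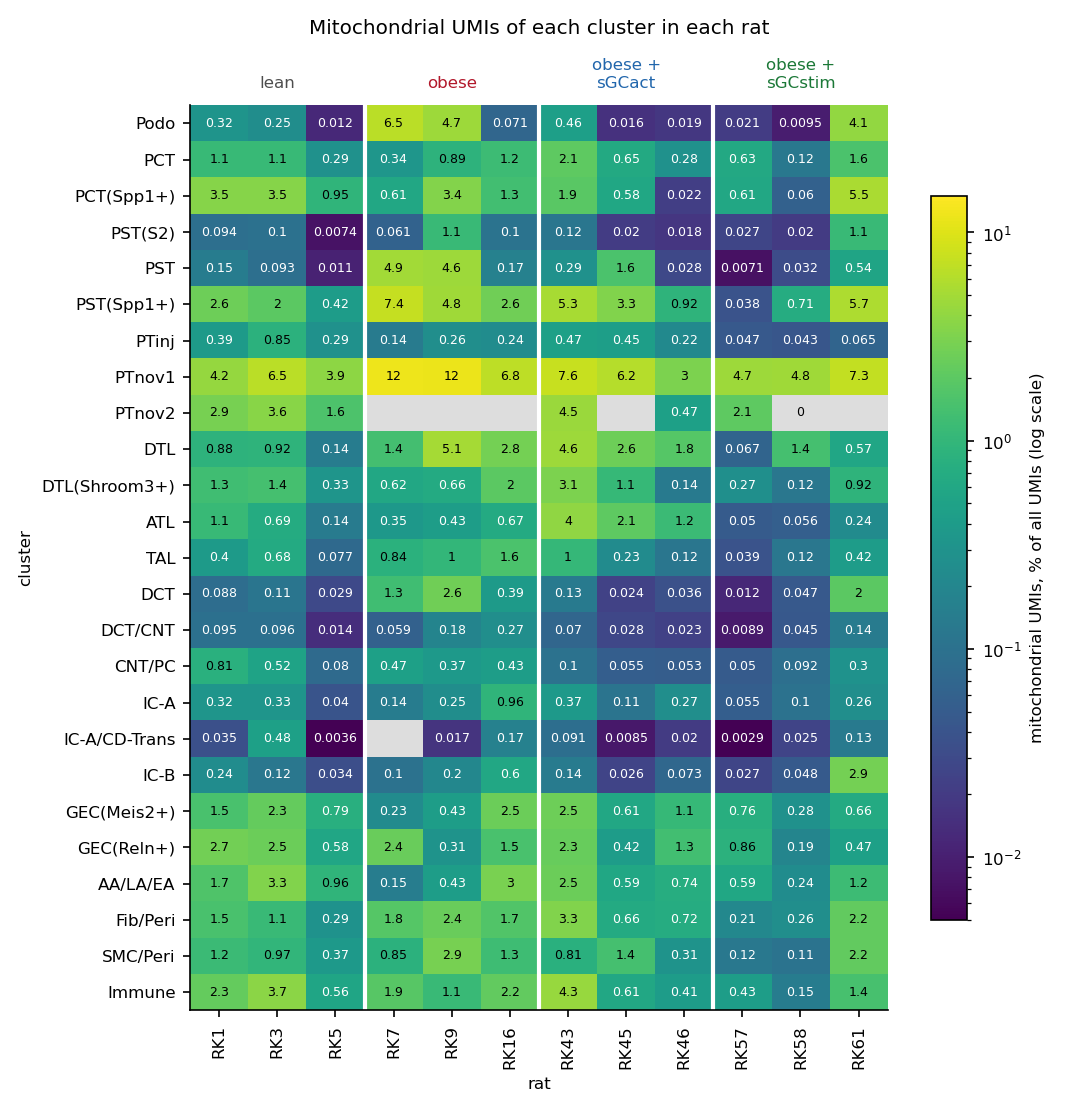
Mitochondrial percentage of the UMIs of each cluster (vertical axis) in each of the 12 rats (horizontal axis, by group), with colour on a log scale. PTnov1 is the highest cluster in 12 of 12 rats, while Podo, PST and DCT are high only in some rats, among them RK7_4 and RK9_4.

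The first comparison asked whether the obese state came with a different mitochondrial percentage in each cluster. Cluster percentages were tested as log2(percentage + 0.1) by limma over the 4 groups, which understates changes of low values, with Benjamini-Hochberg adjustment over 22 clusters and a threshold of 0.05. None of the 22 clusters (0%) passed between obese and lean rats, and edgeR's quasi-likelihood test on the UMIs also called 0, with 3 clusters at an unadjusted p under 0.05 by limma and 2 by edgeR. The median difference over clusters was +0.67 on this log2 scale, with 15 clusters higher and 7 lower in obese rats. Without any overlap of rats, 7 of 22 clusters (31.8%) were higher in obese rats, namely PST, PST(Spp1+), PTnov1, DTL, TAL, DCT and the interstitial cluster Fib/Peri of fibroblasts and pericytes. PTinj alone (4.55%) was lower without overlap. Full separation of 3 rats from 3 gives an exact permutation p of 0.1, so some can occur among 22 clusters without a group difference.

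PST showed the largest obese-lean difference, at 3.23% ± 2.66 in obese against 0.0834% ± 0.0680 in lean rats (SD, n = 3 each), a log2 difference of 3.41 with SE 1.2 and adjusted p = 0.165 (limma). DCT came next, at 1.44% ± 1.13 against 0.0771% ± 0.0434, a log2 difference of 2.83 with SE 1.02 and adjusted p = 0.165 (limma). In a limma fit of only the obese and lean rats, PST, DCT and Podo passed (adjusted p = 0.00563 for PST and 0.0185 for DCT). These calls thus changed with the rats that entered the fit. That fit also pools the spread over clusters, and the clusters of a rat come from 1 library. The part of this pooling in the calls was not tested. With nuclei of at least 1000 UMIs the DCT difference was 1.49 and that of PST 2.61 (limma adjusted p = 0.629 and 0.342). DTL differed by 2.17 with SE 0.91 (limma adjusted p = 0.238) and TAL by 1.55 with SE 0.83 (limma adjusted p = 0.388). Without RK16_4 PST passed the test, and without RK61_4, whose group is not in this contrast but adds to the estimate of spread, DCT passed it.

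The second comparison asked whether either compound moved the percentages of obese rats, and it shares the vehicle-treated obese rats with the first. Under sGCact 0 of 22 clusters (0%) passed limma or edgeR, with 2 at an unadjusted p under 0.05 by each. Of the 22 differences 16 were negative, with a median of -0.84 on the log2 scale. DCT and CNT/PC, the connecting tubule and principal cells, were lower in every sGCact rat than in every obese rat (9.09% of clusters). DCT was at 0.0645% ± 0.0596 under sGCact against 1.44% ± 1.13 in obese rats, a log2 difference of -2.96 with SE 1.02 (limma adjusted p = 0.256). CNT/PC, named for its non-overlapping groups, held 0.102%, 0.0547% and 0.0530% under sGCact and 0.471%, 0.366% and 0.430% in obese rats, a log2 difference of -1.63 with SE 0.72 (limma adjusted p = 0.418). The lean values of CNT/PC, 0.809%, 0.522% and 0.0801%, spanned both. Without RK16_4, 3 clusters passed (Podo, PST and DCT), and without RK61_4 DCT passed.

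Under sGCstim 0 of 22 clusters (0%) passed limma or edgeR, with 3 at an unadjusted p under 0.05 by each. The differences were negative in 21 of 22 clusters, with a median of -1.16, and PTinj, TAL and CNT/PC were lower without overlap (13.6%). TAL held 0.193% ± 0.200 under sGCstim against 1.13% ± 0.377 in obese rats, a log2 difference of -2.25 with SE 0.83 (limma adjusted p = 0.166). PST differed by -3.15 with SE 1.2 and DTL by -2.34 with SE 0.91, each at the same adjusted p of 0.166 by limma. The count rested on RK61_4: without it 7 clusters passed (Podo, PST, PST(Spp1+), TAL, DCT, Fib/Peri and the smooth muscle and pericyte cluster SMC/Peri), which include neither DTL, PTinj nor CNT/PC, and without RK16_4 PST passed. The sGCstim group thus combined RK57_4 and RK58_4, which were the lowest of all rats in 8 and 7 clusters, with 1 rat that resembled the high obese rats in podocytes and DCT.

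Set against each other, the sGCact and sGCstim rats differed in 0 of 22 clusters (0%) by limma or edgeR, with 2 at an unadjusted p under 0.05 by each. The daily dose differed between the compounds, so these values are not a comparison at matched dose. PTinj and DTL were higher in every sGCact rat than in every sGCstim rat (9.09%). PTinj stood at 0.382% ± 0.137 under sGCact and 0.0517% ± 0.0118 under sGCstim, a log2 difference of 1.63 with SE 0.62 and adjusted p = 0.234 by limma (0.0426 without pooling the spread over clusters). DTL stood at 3.03% ± 1.45 and 0.686% ± 0.686, a log2 difference of 2.40 with SE 0.91 and adjusted p = 0.234 by limma. Between all 9 obese rats and the 3 lean rats 0 of 22 clusters (0%) passed limma or edgeR, with 0 and 1 at an unadjusted p under 0.05, and the median difference was 0.12.

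Values for the whole kidney depended on how clusters were combined. The median over the 22 clusters of a rat was 1.03 ± 0.288 in obese and 0.742 ± 0.395 in lean rats (SD, n = 3 each), with p = 0.4 by an exact two-sided permutation test, for which 3 rats against 3 allow no p below 0.1. It was 0.771 ± 0.639 under sGCact (exact permutation p = 0.6 against obese) and 0.448 ± 0.626 under sGCstim (exact permutation p = 0.3 against obese). The mean over the 22 clusters, a summary chosen after the data were seen, was 1.94 ± 0.372 in obese and 1.06 ± 0.53 in lean rats, higher in 9 of 9 pairs of rats (exact permutation p = 0.1). With all nuclei of a rat summed, so that large clusters count more, the obese rats were at 2.40 ± 1.51 and the lean rats at 0.501 ± 0.279, with the smallest p the design allows (exact permutation p = 0.1).

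The balance between the proximal tubule and the later nephron was also compared. The log2 ratio of their mitochondrial percentages, each with 0.1 added, was -0.01, 0.41 and 0.79 in lean rats and 2.13, 2.01 and 0.06 in obese rats. It was 1.84, 2.62 and 0.45 under sGCact and 0.91, 0.76 and 1.90 under sGCstim. The proximal tubule thus exceeded the later nephron in 11 of 12 rats, and RK16_4 was the obese rat near 0. The obese-lean difference of 1.00 gave an exact permutation p of 0.3. Over all 9 obese rats the difference from lean was 1.01, positive in 23 of 27 pairs of rats, with an exact permutation p of 0.0818 (0.0364 without RK16_4). With clusters weighted equally it turned to -0.36 (exact permutation p = 0.382), so its sign depended on the large clusters.

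Percentages relative to the other clusters of the same rat, which remove a shift common to a whole rat, gave 0 of 22 clusters (0%) past the limma threshold in the obese-lean contrast, under sGCact and under sGCstim against obese and between all obese rats and lean. The unadjusted p was under 0.05 for 3, 2, 1 and 3 clusters by limma in these contrasts. DCT and PST differed most between obese and lean rats, by 2.29 (SE 0.73, limma adjusted p = 0.126) and 2.88 (SE 1.04, limma adjusted p = 0.142). Without RK16_4, 5 clusters passed in each of the obese-lean, sGCact and sGCstim contrasts and 4 in that of all obese rats against lean. PST and Podo were in each of these lists.

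**Figure D2:**
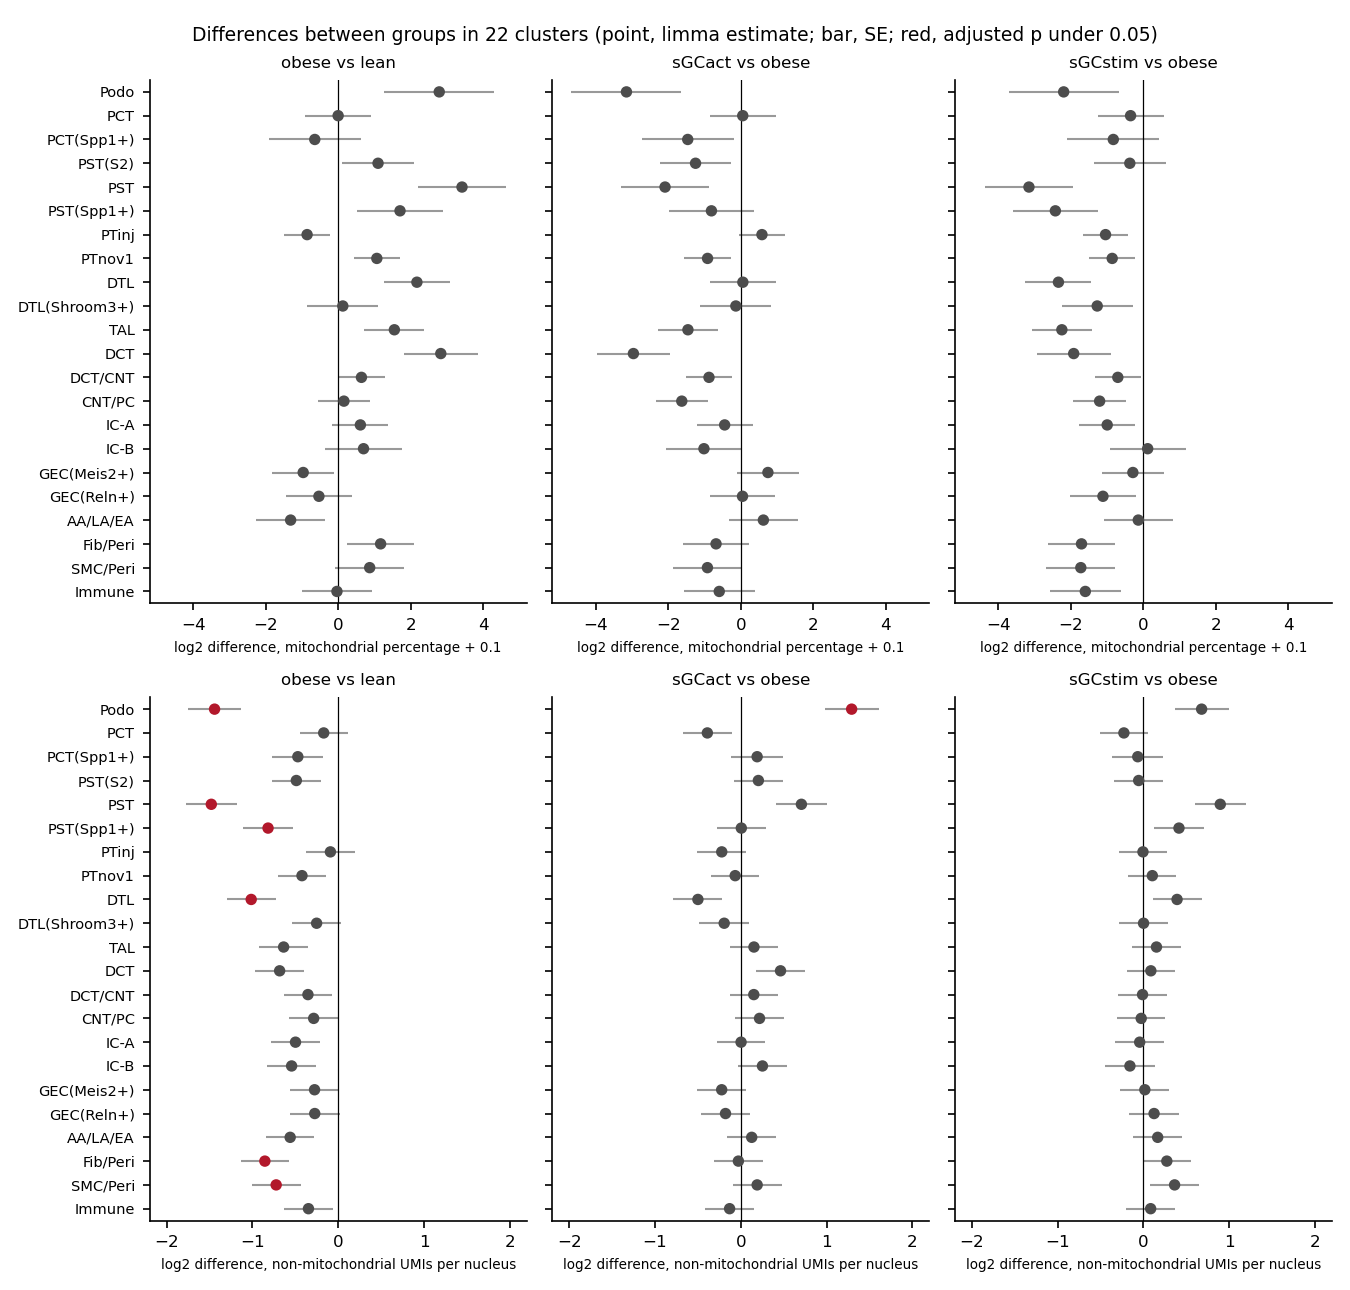
Differences between groups in 22 clusters as log2 of the mitochondrial percentage + 0.1 (upper panels) and log2 of non-mitochondrial UMIs per nucleus (lower panels), for obese against lean, sGCact against obese and sGCstim against obese rats. Points are limma estimates, bars SE, and red points have an adjusted p under 0.05. No point is red in the upper panels, and in the lower panels 6 are red for obese against lean and 1, Podo, for sGCact against obese.

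A percentage has 2 sources, the mitochondrial UMIs and the other UMIs of a nucleus, and these were compared separately. Mean mitochondrial UMIs per nucleus, tested as log2(UMIs + 1), gave 0 of 22 clusters (0%) by limma in each of the same 4 contrasts, with 2, 1, 4 and 1 at an unadjusted p under 0.05. Under sGCstim all 22 differences from obese rats were negative, with a median of -1.39. PST nuclei held 39.5, 45.2 and 3.28 mitochondrial UMIs in the obese rats RK7_4, RK9_4 and RK16_4 against 5.83, 3.07 and 0.25 in lean rats, a log2 difference of 2.62 with SE 1.16 (limma adjusted p = 0.381). Podocyte nuclei held 40.3, 60.9 and 1.62 in obese rats, 39.9 in RK61_4 and at most 14.4 in every other rat.

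Non-mitochondrial UMIs per nucleus were lower in obese than in lean rats in all 22 clusters, with a median log2 difference of -0.49, and 6 clusters (27.3%) passed limma. These were PST, Podo, DTL, PST(Spp1+), Fib/Peri and SMC/Peri. In PST the mean was 1211 ± 631 in obese and 3187 ± 852 in lean rats, a log2 difference of -1.48 with adjusted p = 4.47e-05 (limma), lower in 9 of 9 pairs of rats. Podocytes stood at 1372 ± 863 and 3293 ± 869, a log2 difference of -1.44 with adjusted p = 0.000119 (limma), and DTL at 996 ± 143 and 2061 ± 635, a log2 difference of -1.01 with adjusted p = 0.00403 (limma). The clusters of a rat come from 1 library, and limma's shared estimate of the spread treats them as separate. With the spread of each cluster taken alone, PST, DTL and Fib/Peri passed at an adjusted p of 0.0476 in the same limma model and Podo did not (0.0949), nor did Podo pass with robust moderation in limma (adjusted p = 0.0792). Fewer transcripts in a nucleus and a less complete capture of them cannot be told apart here.

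In 4 of the called clusters, PST, PST(Spp1+), DTL and Fib/Peri, the mitochondrial percentage of obese and lean rats did not overlap either. In Podo it did, through RK16_4, and it did in SMC/Peri. Under sGCact the podocyte nuclei held 2903 ± 206 non-mitochondrial UMIs against 1372 ± 863 in obese rats, a log2 difference of 1.29 with adjusted p = 0.00155 (limma), the only cluster called (4.55%), but at 0.526 with the spread of that cluster alone. Under sGCstim 0 of 22 clusters (0%) passed, with 2 at an unadjusted p under 0.05 by limma, and edgeR was not run on this measure. Between all 9 obese rats and the lean rats 5 clusters (22.7%) passed limma, Podo, PST, PST(Spp1+), DTL and Fib/Peri, and only DTL and Fib/Peri passed with the spread of each cluster alone. The counts of these calls varied with the rats kept, between 3 and 11 for obese against lean.

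In some clusters the rats with a high mitochondrial percentage were also those with few other UMIs. In podocytes RK7_4, RK9_4 and RK61_4 held 583, 1238 and 931 non-mitochondrial UMIs per nucleus and every other rat at least 2294. In PST the 3 rats over 1%, RK7_4, RK9_4 and RK45_4, held 763, 936 and 1164 and every other rat at least 1933. DCT and IC-B had the same pattern: RK7_4, RK9_4 and RK61_4 were at 1481, 1641 and 1238 in DCT with every other rat at 1710 or above, and RK61_4 was at 1045 in IC-B with every other rat at 1497 or above. Such a separation held in 6 of the 17 clusters that had rats on both sides of 1% (Podo, PST(S2), PST, DTL, DCT and IC-B). It did not hold in the other 11, among them PCT, TAL and the widely spread PCT(Spp1+) and PST(Spp1+). In PCT(Spp1+) the rats over 1% held 803 to 2284 non-mitochondrial UMIs and the rest 1132 to 2447. The percentage contains the other UMIs in its denominator and the mitochondrial UMIs in its numerator. Sorting rats by it therefore favours a difference in both. Mitochondrial UMIs per nucleus were higher in the rats over 1% than in the rest in Podo (39.9 to 60.9 against 0.252 to 14.4). The same held in PST (18.3 to 45.2 against 0.163 to 10.7) and DCT (19.3 to 44.4 against 0.257 to 6.69). In DTL the mitochondrial UMIs overlapped (13.0 to 62.2 against 1.02 to 24.6). The part of depth in the group differences was not tested.

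**Figure D3:**
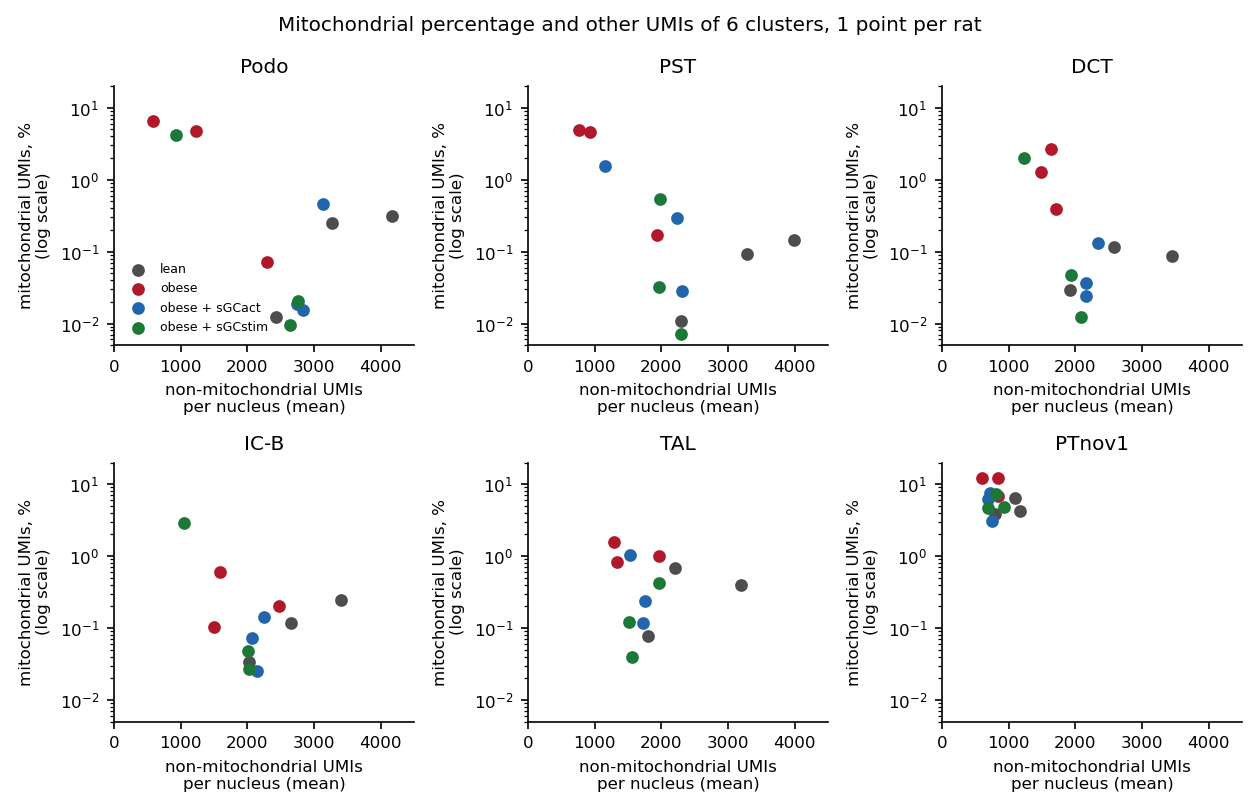
Mitochondrial percentage (log scale) against mean non-mitochondrial UMIs per nucleus in 6 clusters, with 1 point per rat coloured by group. In Podo, PST, DCT and IC-B the rats over 1% lie to the left of all other rats, in TAL they do not, and in PTnov1 all 12 rats lie between 597 and 1175 UMIs.

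The same relation was then examined between nuclei of the same rat and cluster, which leaves differences between rats aside. The percentage that sorts the nuclei has their other UMIs in its denominator, which favours fewer of them in nuclei over 1%. In all 17 clusters with enough nuclei on both sides of 1% in at least 6 rats (100%), nuclei over 1% mitochondrial held fewer non-mitochondrial UMIs than the remaining nuclei (exact sign-flip permutation test over rats, adjusted p between 0.00277 and 0.0312). In TAL the mean log2 difference of the medians was -0.96 ± 0.39 (SD, n = 12), lower in 12 of 12 rats, with p = 0.000488, the smallest that 12 rats allow in this exact permutation test. The difference was widest in DCT, at -1.25 ± 0.30 over 8 rats, and narrowest in the vascular cluster AA/LA/EA, at -0.51 ± 0.20 over 8 rats. In each of 15 of these clusters every rat showed the direction, and 1 rat did not in PTinj (9 of 10) and IC-A (8 of 9).

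Because the denominator favours such a result, mitochondrial UMIs per nucleus were also compared between the nuclei below and above the median of non-mitochondrial UMIs of their own rat and cluster, a test chosen after the data were seen. The nuclei with fewer other UMIs held more mitochondrial UMIs in 21 of 22 clusters, and 18 of 22 (81.8%) passed in that direction by an exact sign-flip permutation test on log2(UMIs + 1). In PCT they held between 2.26 and 40.1 mitochondrial UMIs per nucleus in the 12 rats, against 1.5 to 19.9 in the nuclei with more other UMIs, a mean log2 difference of 1.19 ± 0.70 (SD, n = 12, exact permutation adjusted p = 0.00119). In TAL they held 0.796 to 33.3 against 0.434 to 18.7, a mean log2 difference of 0.87 ± 0.63 (exact permutation adjusted p = 0.00119). The direction was the same in 12 of 12 rats in both clusters, so the nuclei with fewer transcripts overall held more mitochondrial ones.

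DCT showed the largest mean difference, 1.33 ± 1.48 (12 of 12 rats, exact permutation adjusted p = 0.00119), and most of it came from the high rats. The shallower DCT nuclei of RK7_4 held 38.0 mitochondrial UMIs and the deeper ones 0.647, and in RK9_4 the values were 84.5 and 4.14. RK61_4 held 39.9 and 9.87 in the same order. As a percentage, the deeper DCT nuclei were at 0.0314% in RK7_4 and 0.171% in RK9_4, against 0.0098% to 0.0608% in lean rats, so RK7_4 lay within the lean range there while its shallower nuclei were at 4.03%. All 111 DCT nuclei with over 10% were on the shallower side.

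Podocytes of the high rats did not follow DCT, and PST followed it in some rats only. In RK7_4 the shallower and deeper podocyte nuclei held 34.4 and 46.1 mitochondrial UMIs, in RK9_4 59.3 and 62.5 and in RK61_4 40.8 and 39.1, so both sides were high. PST nuclei held 43.9 and 35.2 in RK7_4 and 43.8 and 46.6 in RK9_4, so both sides were high there too. In RK45_4, the other rat over 1% in PST, they held 22.9 and 13.7, and in RK61_4 19.1 and 2.35, so the shallower nuclei held more.

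PTnov1 was the exception among the 22 clusters. Its nuclei with more other UMIs held more mitochondrial UMIs in 12 of 12 rats, a mean log2 difference of -0.55 ± 0.46 (SD, n = 12) for the shallower against the deeper nuclei (exact permutation adjusted p = 0.00119). Its mitochondrial percentage differed by -0.12 on the log2 scale, which did not pass (exact permutation adjusted p = 0.193), while that of the other 21 clusters (95.5%) passed as higher in the shallower nuclei. Of PTnov1 nuclei, 34.1% on the shallower and 31.5% on the deeper side had over 10%. Of these 1433 and 1304 nuclei, RK7_4 held 182 and 158 and RK9_4 held 918 and 839. The log2 differences in mitochondrial UMIs of these rats were -0.31 and -0.23. The difference was -0.49 in RK46_4, with 0 nuclei over 10% on either side, and -1.65 in RK57_4, with 0 and 7. The limit of 15% caps mitochondrial UMIs more tightly the fewer UMIs a nucleus has. 3 clusters did not pass for mitochondrial UMIs, PCT(Spp1+), PST(Spp1+) and AA/LA/EA (exact permutation adjusted p = 0.564, 0.0619 and 0.0619). The parts of the limit, of the subtraction of ambient RNA and of the clustering in these differences were not tested.

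**Figure D4:**
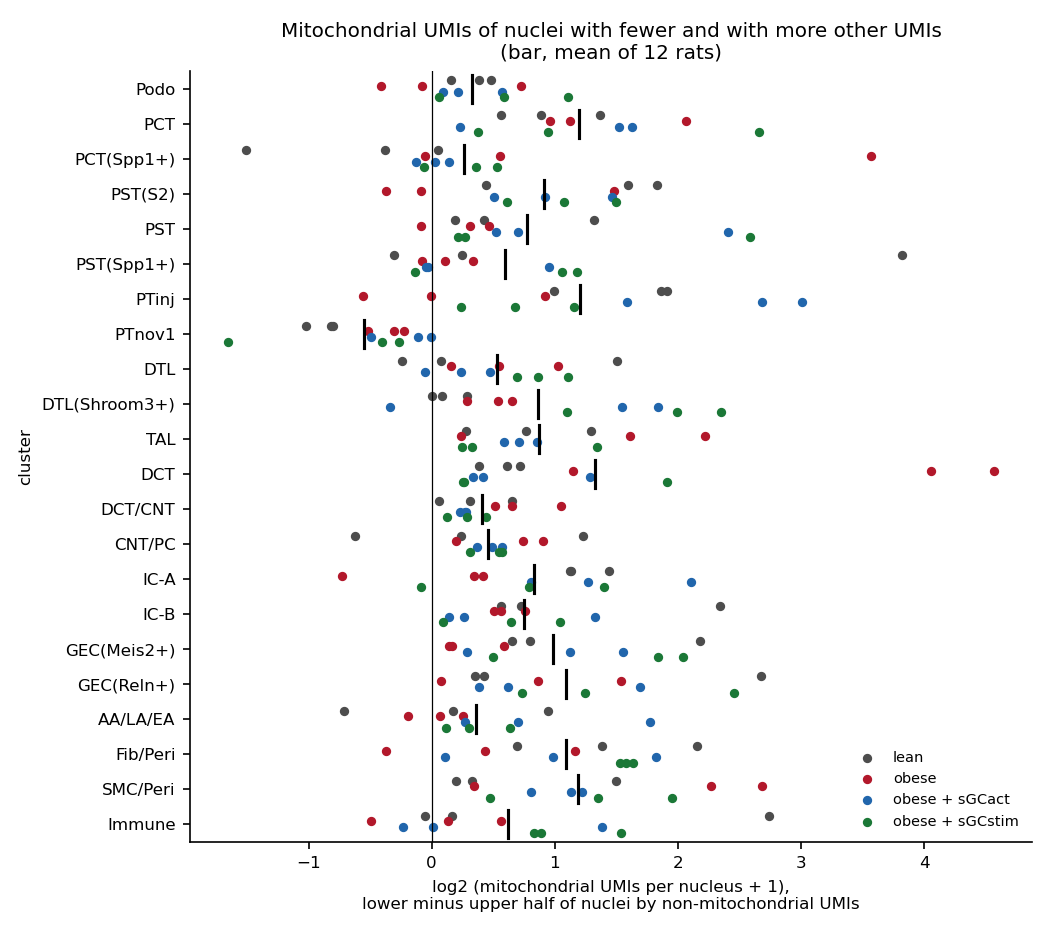
Difference in log2(mitochondrial UMIs per nucleus + 1) between nuclei below and above the median of non-mitochondrial UMIs, for 22 clusters, with 1 point per rat coloured by group and a bar at the mean of 12 rats. All 12 points of PTnov1 lie below 0, and all 12 of PCT, TAL and DCT lie above it.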

How the data were processed

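Nuclei of 12 rat kidneys were analysed from the deposited table of nuclei, in which rat, group, cluster and cell type are other values given as names by the authors. UMIs of a nucleus were deposited as whole counts, not normalized. The mitochondrial measure was deposited as a percent of each nucleus' total UMIs; the gene-name pattern behind it is not given in the sources used here. The submitters' processing notes name Cell Ranger 6, Seurat and the rn6 build. Per the methods, the authors subtracted ambient RNA with SoupX, removed doublets with DoubletFinder, left out nuclei with under 200 or over 3000 genes or over 15% mitochondrial UMIs, and joined rats with Harmony. The limit acts on the quantity reported here, so the highest percentages are cut off. Whether the deposited counts are those before or after the subtraction was not checked, so part of the free mitochondrial RNA may have been removed. No column of per-sample values stayed unmapped (0), and 108 nuclei whose cluster and cell type disagree were kept in their cluster.

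UMIs were summed per rat and cluster. Clusters with at least 10 nuclei in every rat (22 of 25; not ATL, IC-A/CD-Trans and PTnov2) were fitted over 4 groups of 3 rats with limma 3.58.1 in R 4.3.3, on log2(percentage + 0.1), the same minus the median of the rat's clusters, log2(mitochondrial UMIs per nucleus + 1) and log2 non-mitochondrial UMIs per nucleus. Mitochondrial UMIs against total UMIs were also tested by edgeR 4.0.16 (quasi-likelihood). Single values per rat were compared by exact permutation, and nuclei within rats by exact sign-flip permutation with Benjamini-Hochberg adjustment over clusters, in Python 3.11.15 with SciPy 1.17.1, pandas 2.3.3 and NumPy 2.4.6, and figures used matplotlib 3.10.9. Scripts were tested on simulated data with independent clusters, so clusters that share 1 library were not simulated. Each rat held 11898496 to 49272672 UMIs, and intervals and limits cover counting error only.

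Described rat by rat were PST, PCT, TAL, DCT, IC-A, podocytes, the 3 clusters with the highest and the 3 with the lowest mean of 12 rats, and up to 5 called clusters per contrast; others are said to be chosen after their values were seen. Members, lists and tests were chosen with earlier results of these data known. Alternatives were other pseudocounts, nucleus and UMI minimums, the median of nuclei, robust moderation, fits limited to the groups being compared, thresholds of 2% and 5%, and each rat left out in turn. Rat names carry no replicate number, so rats were grouped by the group name in the table.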

Additional observations from a re-analysis of the deposited data

Results flagged for a closer look

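Between obese and lean rats, 7 clusters had a higher mitochondrial percentage in every obese rat and 1 cluster a lower one in every obese rat. The log2 differences were 3.41 in PST, 1.70 in PST(Spp1+), 1.06 in PTnov1, 2.17 in DTL, 1.55 in TAL, 2.83 in DCT and 1.17 in Fib/Peri, against -0.86 in PTinj. The difference between PTinj and the other clusters was not tested, and none of the 8 clusters passed limma in this contrast (adjusted p between 0.165 and 0.489).

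Every rat showed fewer mitochondrial UMIs in the shallower than in the deeper nuclei of PTnov1 (mean log2 difference -0.55) and more of them in 8 other clusters. These mean differences were 1.19 in PCT, 0.87 in TAL, 1.33 in DCT, 0.41 in DCT/CNT, 0.75 in IC-B, 0.99 in GEC(Meis2+), 1.09 in GEC(Reln+) and 1.19 in SMC/Peri. The difference between PTnov1 and these clusters was not tested itself.

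The thin ascending limb (ATL) had too few nuclei for the tests, since RK46_4 held 6. Its mitochondrial percentage under sGCact was 4.03%, 2.08% and 1.17%, a mean of 2.43%, and each of these was above the highest lean value of 1.11%. They were also above the vehicle-treated obese rats, at 0.353% to 0.668%, and the sGCstim rats, at 0.0495% to 0.236%.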

How the results depend on the processing

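No paired analysis was possible because the rat names in the table carry no replicate number. The fit of all obese against lean rats on only the groups compared equals the one reported. Of 476 recomputed values and counts that answer a comparison, 411 kept their direction and their side of the threshold or stayed within 1.5 times, 45 counts moved further, 19 values turned direction and 1 newly passed (the proximal ratio of all obese rats without RK16_4, p = 0.0364 by exact permutation).

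Counts of called clusters moved as follows. For the percentage, obese against lean gave 3 with only the groups compared (Podo, PST, DCT), and sGCact against sGCstim gave 1 with clusters of at least 1 nucleus in every rat (ATL) and 1 without moderation (PTinj). For the relative percentage, sGCact against obese gave 2 with at least 1 nucleus (ATL, DCT) and 1 with a pseudocount of 0.01 (DCT). For mitochondrial UMIs, sGCact against obese gave 1 with only the groups compared (DCT). For non-mitochondrial UMIs, obese against lean gave 3 with only the groups compared, 3 with nuclei of at least 1000 UMIs and 3 without moderation. The sGCact contrast gave 0 with robust moderation, with only the groups compared, with at least 1000 UMIs and without moderation, and 2 with at least 1 nucleus. All obese against lean gave 3 with at least 20 nuclei, 2 with at least 1000 UMIs, 3 with the median of nuclei and 2 without moderation. Fits without moderation, in which each cluster keeps its own spread, were added after the data were seen.

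With 1 rat left out, calls of the percentage ran from 0 to 1 (obese against lean), 0 to 3 (sGCact) and 0 to 7 (sGCstim), and stayed at 0 in the remaining contrasts. Calls of the relative percentage ran from 0 to 5 in these contrasts and 0 to 4 for all obese rats, each reached without RK16_4. Calls of mitochondrial UMIs ran from 0 to 1 (sGCact) and 0 to 6 (sGCstim), each without RK61_4, and stayed at 0 otherwise. Calls of non-mitochondrial UMIs ran from 3 (without RK3_4 or RK7_4) to 11 (without RK9_4) for obese against lean, from 0 (without RK1_4, RK5_4 or RK7_4) to 2 (without RK16_4 or RK45_4) under sGCact, from 0 to 2 under sGCstim (without RK16_4 or RK61_4) and from 2 (without RK3_4) to 13 (without RK5_4) for all obese rats, with 3 without RK1_4 and 10 without RK9_4.

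The difference in the median over clusters of a rat, with 1 rat left out, ran from 0.0618 to 0.442 (obese against lean), -0.617 to 0.00172 (sGCact, positive without RK46_4), -0.945 to -0.390 (sGCstim), -0.0334 to 0.683 (sGCact against sGCstim, negative without RK43_4) and -0.220 to 0.135 (all obese against lean). The sGCact-sGCstim difference was -0.00476 with all nuclei summed. The mean over clusters, added after the data were seen, gave 0.879 (obese against lean), -0.777 (sGCact), -1.03 (sGCstim), 0.251 (sGCact against sGCstim) and 0.277 (all obese against lean). All obese against lean turned to -0.220 without RK5_4, -0.0319 without RK9_4, -0.0606 without RK16_4, -0.0835 without RK43_4 and -0.0446 without RK61_4.

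The log2 ratio of proximal tubule to later nephron ran from 0.64 to 1.67, -0.43 to 0.83, -0.88 to 0.16 and 0.81 to 1.21 in the obese-lean, sGCact, sGCstim and all-obese contrasts. Under sGCact it turned to -0.433 without RK16_4 and -0.254 without RK45_4, and under sGCstim to 0.155 without RK7_4, 0.0946 without RK9_4 and 0.00366 without RK58_4. With clusters weighted equally the differences were -0.366, -0.341, 0.354 and -0.362 in the same order, with a pseudocount of 1 the sGCact difference was -0.234, and with a pseudocount of 0.01 the sGCstim difference was 0.241. Contrasts of 3 against 3 rats allow no p below 0.1.

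Split at 5% instead of 1%, 6 of 8 clusters passed for non-mitochondrial UMIs. The causes of these changes were not tested. Groups of 3 rats and the spread between them, not counting error, limit the group comparisons.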
